A study of Mus musculus with 14 samples.

Results

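The comparison described here sets livers of mice without Rbbp5 in their hepatocytes against livers of mice that kept it, all taken 8 h after tunicamycin. Its members are the 4 libraries titled LKO and the 3 titled WT that received tunicamycin, 7 of the 14 libraries of the study. All mice were male littermates aged 5 to 7 months, and both genotypes carried floxed Rbbp5 alleles (Rbbp5 flox/flox). WT mice had no Alb-CRE (-/-) and LKO mice carried it (+/-). Alb-CRE is a recombinase driven by the albumin promoter, which deletes floxed alleles in hepatocytes, so other liver cells of LKO mice keep the gene. Sample labels spell the genotype RRBP5 LKO and the design text spells it RBBP5 LKO. Tunicamycin was injected into the peritoneum at 0.05 mg/kg in 500 µl of 3% DMSO in PBS, between 9 and 10 in the morning. The other 7 libraries, 3 WT and 4 LKO, came from mice given the DMSO vehicle alone. Their levels are given below for reference. They were also fitted together with the tunicamycin libraries, so they enter the filter on low counts and the estimate of spread behind the calls. LKO vehicle libraries 3 and 4 differed by less than other pairs of replicates and were counted as 1 sample.

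Rbbp5 is a core subunit of the MLL and SET1 complexes, which methylate histone H3 at lysine 4 at promoters and enhancers. Tunicamycin blocks the first step of N-linked glycosylation, so newly made glycoproteins fold poorly in the endoplasmic reticulum (ER). Cells answer with the unfolded protein response: the sensors IRE1, PERK and ATF6 raise, through the factors XBP1, ATF4 and cleaved ATF6, the genes for ER chaperones, for ER-associated degradation (ERAD) and for stress signalling. Hepatocytes secrete most plasma proteins, and this response is well known in liver.

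Reads on the sense strand of genes numbered 6969341 to 9425475 in the 7 libraries. Between 72.5 and 75.5% of them lay on Rn45s, the 45S ribosomal RNA gene, although the labels name polyadenylated RNA, which left 1704479 to 2581822 reads for all other genes. Levels are given as CPM, the reads of a gene over the library size scaled by TMM, with Rn45s part of that size. CPM is not scaled by gene length. Precision therefore comes from the spread between libraries. The labels do not say that each library came from its own mouse, so the p-values measure the spread between libraries. That spread was pooled over the 13 samples of the fit, vehicle included, and is not that of the tunicamycin libraries alone. Defining hepatocyte markers were abundant in every library, with at least 74408 reads of Alb and 8182 of Apoa1. Of bile duct markers, Krt19 and Epcam had at most 3 reads in a library, Krt7 had 1 to 6, Sox9 had 12 to 47 and Spp1, which other cells also make, had 38 to 787. Of lymphocyte markers Cd3e, Cd79a and Nkg7 had at most 2.

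Differences between WT tunicamycin libraries were large. Library 3 stood apart from both others, with a chi-square per degree of freedom of 25.9 and 25.8, against 6.23 between libraries 1 and 2. Its acute-phase genes summed to 10398 CPM, against 35961 and 38728 CPM in libraries 1 and 2 and 24636 to 34562 CPM in the LKO libraries. Its lipogenesis genes summed to 4246 CPM, against 1267 and 1349 CPM. Library 2 stood apart in another way, with ER chaperones summing to 1660 CPM against 2807 and 2579 CPM in libraries 1 and 3. The part of either library in the results was not tested beyond the fits without it, which are given below.

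**Figure D1:**
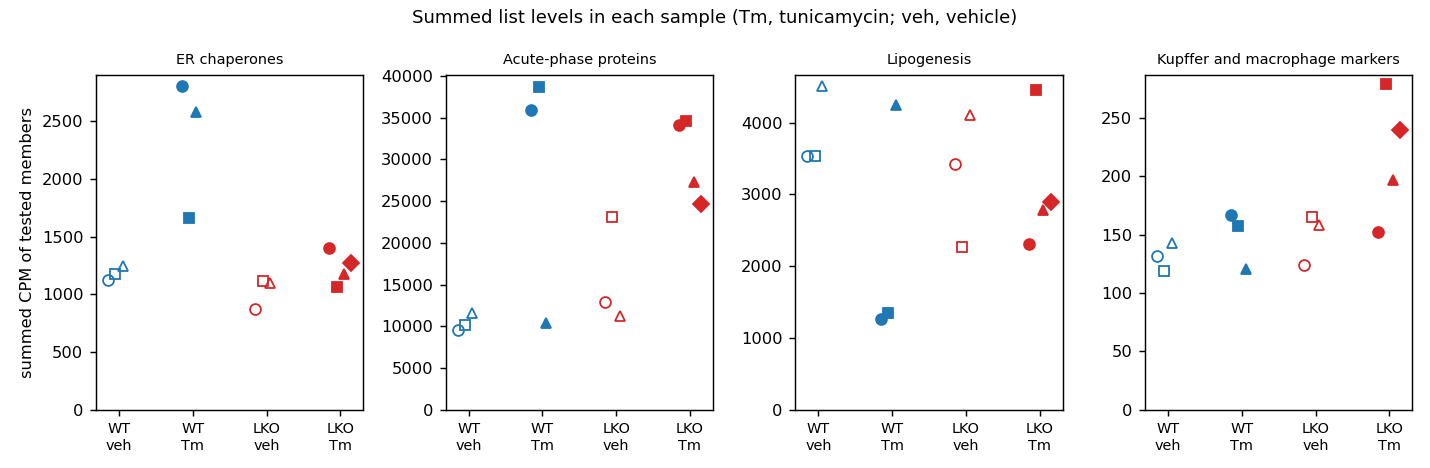
Summed CPM of the tested members of 4 gene lists (vertical axes, from 0) in each sample, by genotype and treatment. Circles, squares, triangles and diamonds are libraries 1 to 4, blue is WT, red is LKO, open symbols are vehicle and filled symbols tunicamycin. ER chaperones reached 1660 to 2807 CPM in WT tunicamycin libraries and 1059 to 1401 CPM in LKO ones, whereas WT tunicamycin library 3 lies with the WT vehicle libraries for acute-phase genes.

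The deleted gene was measured first. Rbbp5 (GRCm38.p6, chr1:132477348-132505665) was at 5.37, 5.03 and 5.71 CPM in WT libraries 1 to 3 and at 2.80, 3.12, 3.46 and 2.06 CPM in LKO libraries 1 to 4. All LKO libraries lay below all WT libraries, in the direction of the labels, although counts were low, from 19 to 39 reads a library. The log2 difference was -0.90 (SE 0.25) and did not pass adjustment over all genes (edgeR quasi-likelihood test with Benjamini-Hochberg adjustment, adjusted p = 0.105). With vehicle it was -0.87. In whole liver, fewer hepatocytes and less RNA per hepatocyte cannot be told apart, and the same holds for every cell type below. Other subunits of the same complexes did not pass the test: the log2 difference was 0.21 for Ash2l, -0.15 for Wdr5 and -0.20 for Dpy30. These 3 were chosen after their values were seen. None of the 19 genes of the H3K4 methyltransferase list was called, and the median of the list was -0.08 (0.07 with scaling by total count).

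LKO livers held less RNA of the ER stress response than WT livers under the same drug. Of 9644 genes tested, 53 were lower in LKO (0.55%) and 30 were higher (0.311%), 83 in all (0.861%) at an adjusted p under 0.05. Ddit3, Nupr1 and Trib3 of the CHOP branch, Derl3 of ERAD and Creld2, a secreted ER stress factor, had the 5 largest falls, and Hspa5, the main ER chaperone, fell 3.43-fold. Among the genes that rose were the chemokine gene Cxcl14, the matrix genes Col6a3 and Nid1 and the macrophage gene Mpeg1. Falls were at least 2-fold for 23 genes and rises for 20. The libraries of both genotypes were fully separate for all 30 higher genes and for 47 of the 53 lower genes, against 12.9% of all genes tested. The genes were called from these same libraries, so their separation describes the calls and is no further support for them. Adjusted p-values of called genes ran from 0.0102 to 0.0498, the latter for Dnajc3, and the next gene outside had 0.0511.

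These calls rest on few libraries. No gene was called without WT tunicamycin library 1, where 1312 had an unadjusted p under 0.05, and 183 were called without library 2 and 64 without library 3. Leaving out LKO tunicamycin library 3 or 4 left 12 or 14 calls, and library 2 left 35. Leaving out WT vehicle library 1, 2 or 3, which enter the shared estimate of spread and the filter on low counts, left 37, 49 or 39, and 131 were called without LKO vehicle libraries 3 and 4. With only the 7 tunicamycin libraries fitted, 27 genes were called, among them 12 of the 53 lower and 11 of the 30 higher genes. Each of the 83 genes kept its direction in every alternative that gave it a value. Of the main calls 36.1% were higher; with scaling by total count, which moved the median of all genes to 0.14 on the log2 scale from -0.01, 142 of 164 calls (86.6%) were higher. With limma on log2(FPKM + 1), 67 of 73 calls were higher (91.8%), and 6 of the 53 lower genes and 22 of the 30 higher genes were called. The counts of lower genes below are therefore those of the TMM scale.

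ER chaperones help new proteins fold in the ER lumen. Of 16 tested, 6 were lower in LKO and none higher, 14 lay below 0 and the median log2 difference was -0.48, against -0.01 over all genes. With vehicle the median of the same list was -0.08. This list, like all lists here, was chosen with earlier results of these data known.

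Hspa5 encodes BiP, the main chaperone of the ER lumen and a regulator of all 3 sensors. In WT livers it was at 854, 313 and 786 CPM, and in LKO livers at 229, 142, 181 and 207 CPM. Every LKO library lay below every WT library, and WT library 2 was nearest to them. The mean was 651 ± 295 CPM (SD, n = 3) in WT and 190 ± 37.3 (n = 4) in LKO, 3.43-fold lower (log2 -1.78, SE 0.27, adjusted p = 0.0102 in edgeR). With vehicle the WT mean was 220 CPM and the LKO mean 139 CPM, a log2 difference of -0.66 that did not pass the test (adjusted p = 0.557, edgeR).

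Hsp90b1, which encodes the ER form of HSP90 (GRP94), was at 751, 411 and 717 CPM in WT and at 315, 245, 276 and 317 CPM in LKO. Groups did not overlap, and the difference was 2.17-fold (adjusted p = 0.0149, edgeR). With vehicle, WT and LKO held 260 and 240 CPM.

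Hyou1, an HSP110-type partner of BiP, stood at 128, 67.3 and 118 CPM in WT and 56.5, 34.2, 34.3 and 42.8 CPM in LKO. The highest LKO library stayed under the lowest WT library, and the fall was 2.49-fold (adjusted p = 0.0102, edgeR). Among the J-domain partners of BiP, Dnajb9 fell 2.48-fold with overlapping libraries, from 83.7, 26.8 and 61.9 CPM in WT to 28.1, 18.6, 23.1 and 23 CPM in LKO. Dnajb11 fell 1.71-fold and Dnajc3 1.59-fold, both without overlap. The abundant lectin chaperones did not pass the test: Calr (calreticulin) had a log2 difference of -0.43 (adjusted p = 0.197) and Canx (calnexin) of -0.19 (adjusted p = 0.495) in edgeR. Their groups also did not overlap, with 328 to 385 CPM of Calr in WT and 233 to 328 CPM in LKO, where the 2 values near 328 differ by less than 1 CPM.

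ERAD carries misfolded proteins out of the ER to the proteasome. Of 24 genes tested, 3 were lower, none higher, 23 lay below 0 and the median was -0.24 (-0.10 with 2 lower under scaling by total count). Derl3, a derlin of the export channel, was at 13.2, 3.73 and 15.0 CPM in WT but at 0.80, 0.13, 1.43 and 1.95 CPM in LKO. Its lowest WT library, again library 2, still lay above all LKO libraries, and the fall was 9.40-fold (SE 0.50 on the log2 scale, adjusted p = 0.0102, edgeR) on counts of 1 to 97 reads. Syvn1 encodes HRD1, the ubiquitin ligase of this pathway. It was at 63.4, 18.3 and 55.7 CPM in WT and at 17.3, 10.5, 9.68 and 12.7 CPM in LKO, 3.68-fold lower (adjusted p = 0.0163, edgeR). WT library 2 and LKO library 1 nearly met. Sel1l, the adaptor of HRD1, fell 1.73-fold, from a range of 90.5 to 155 CPM to one of 66.0 to 81.7 CPM. Herpud1, another partner of HRD1, had a log2 difference of -1.14 that missed the threshold (adjusted p = 0.0832, edgeR), with WT library 2 at 60.6 CPM inside the LKO range of 53.9 to 67.6 CPM. Edem1, a lectin of ERAD, had -0.43 (adjusted p = 0.121).

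Among enzymes of disulfide bonds, 2 of 19 tested were lower and none higher. All 19 lay below 0 with a median of -0.21, which was -0.07 with scaling by total count (1 lower) and -0.36 without WT library 2. Pdia4, a large disulfide isomerase, was at 230, 128 and 209 CPM in WT and 102, 71.8, 102 and 90.4 CPM in LKO. No LKO library reached the WT range, and the fall was 2.06-fold (adjusted p = 0.024, edgeR). With vehicle, Pdia4 was slightly higher in LKO, by 0.12 on the log2 scale. Ero1lb, now named Ero1b, an oxidase that recharges the isomerases, fell 1.97-fold. P4hb, the isomerase with the most reads, had a log2 difference of -0.20 (adjusted p = 0.523), and Pdia3, which works with the lectin chaperones, one of -0.53 (adjusted p = 0.0909) in edgeR.

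Of the list of secreted ER stress factors, which also holds the membrane protein Creld1, 3 of 7 tested were lower, with none higher and a median of -0.80. Without WT library 1 the median was -0.47 with none called, and without library 3 only 1 was called. Creld2 was at 59.0, 13.3 and 49.7 CPM in WT and 6.66, 3.77, 2.96 and 7.06 CPM in LKO. Every WT library lay above every LKO library, and the groups differed 8.02-fold (40.7 ± 24.2 against 5.11 ± 2.05 CPM, SD, adjusted p = 0.0102, edgeR). Manf, a small stress-induced secreted protein, fell 2.69-fold with overlap between WT library 2 (33.7 CPM) and LKO library 1 (37.3 CPM). Creld1, a membrane relative of Creld2, fell 2.16-fold.

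**Figure D2:**
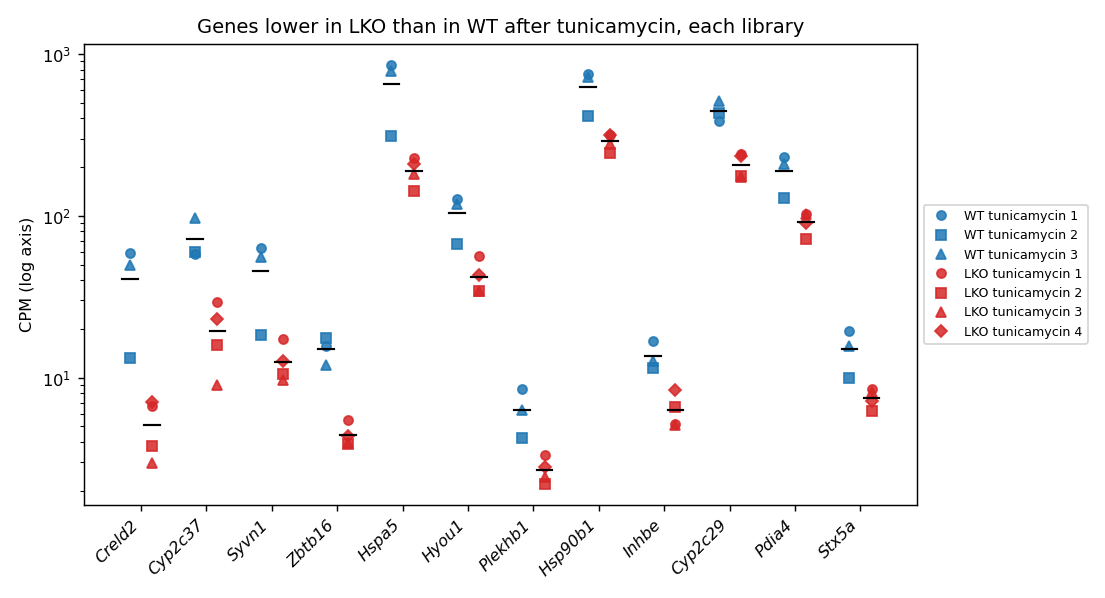
CPM (log axis) of 12 genes called lower, those with the largest falls whose libraries did not overlap and whose log2 CPM averaged 2 or more, in each tunicamycin library. Blue symbols are WT libraries 1 to 3, red symbols LKO libraries 1 to 4, and bars are group means. WT library 2 (blue squares) sits nearest to LKO for Creld2, Syvn1, Hspa5, Hyou1, Plekhb1, Hsp90b1, Inhbe, Pdia4 and Stx5a, but not for Cyp2c37, Zbtb16 or Cyp2c29.

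The CHOP branch held the largest falls, and also the widest scatter. Of 13 tested genes of the ATF4 and CHOP list, 3 were lower, none higher, and the median was -0.55. In this list 11 genes lay below 0 and 2 above, with log2 differences from -4.02 to 1.19. Ddit3, which encodes CHOP, was at 26.3, 1.30 and 20.4 CPM in WT and 0.40, 0.39, 2.04 and 0.87 CPM in LKO. WT libraries 1 and 3 stood far above all others, while WT library 2 lay inside the LKO range. The difference was 16.2-fold (log2 -4.02, SE 0.66, adjusted p = 0.0149, edgeR).

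Nupr1, a stress-induced nuclear protein, followed the same layout, with 10.6, 0.65 and 13.4 CPM in WT and 0.13 to 1.30 CPM in LKO. Trib3, a pseudokinase that CHOP induces, was at 9.22, 0.65 and 8.64 CPM in WT and 0.33 to 1.2 CPM in LKO. Both differences rest on WT libraries 1 and 3. In edgeR the adjusted p for Nupr1 was 0.118, 2.91e-05 and 0.0511 without WT library 1, 2 and 3, and for Trib3 0.183, 9.03e-05 and 0.083. Cth and Atf5, the other members with the most reads, had log2 differences of -0.15 and 0.13. Inhbe, the activin E subunit made by hepatocytes and no member of the list, fell 2.17-fold, from 16.9, 11.5 and 12.7 CPM to 5.20, 6.64, 5.09 and 8.36 CPM. Here WT library 2 was again the lowest of the WT libraries, close to library 3, and no library overlapped.

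RNA of the sensors and their factors did not pass the test. None of 14 tested genes of that list was called, although 13 lay below 0 (median -0.29, and -0.14 with scaling by total count) and 4 had an unadjusted p under 0.05, against 8.24% of all genes in this direction. In edgeR the log2 difference was -0.54 for Xbp1 (adjusted p = 0.0876), -0.51 for Atf6 (adjusted p = 0.0882), -0.40 for Atf4 (adjusted p = 0.367), -0.12 for Ern1, which encodes IRE1, and -0.23 for Eif2ak3, which encodes PERK. These 5 were chosen after their values were seen. Splicing of Xbp1 and cleavage of ATF6 cannot be read from counts per gene. N-glycan assembly, the pathway that tunicamycin blocks, had no called gene of 43 tested and a median of -0.14 (0.00 with scaling by total count).

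Of the list of ER translocon and coat vesicle genes, 1 of 54 was lower, 47 lay below 0 and the median was -0.16 (-0.01 with scaling by total count). The called member was Sec23b, a coat protein of vesicles that leave the ER, which fell 1.73-fold. Further falls concerned the same route, although these genes are in no list and were grouped after their values were seen. Stx5a, a fusion protein between ER and Golgi, was at 19.4, 9.89 and 15.6 CPM in WT and 8.53, 6.25, 8.15 and 7.17 CPM in LKO, without overlap. Tfg, of ER exit sites, fell 1.60-fold, Jagn1, of the early secretory pathway, 1.69-fold, and Slc30a5, a zinc transporter of that pathway, 1.66-fold. Atp2a2, the calcium pump of the ER, fell 1.63-fold, Serp1, which protects membrane proteins during stress, 1.51-fold, and Lrrc59 and Ccdc47, of the ER membrane, 1.54-fold and 1.39-fold. Over the 8 lists of the secretory pathway and its stress response, 18 of 189 genes tested were lower (9.52%) and none was higher, against 0.55% lower of all genes tested.

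Promoters of these genes were read because a stretch called the ER stress response element (ERSE) is known to bind ATF6 and XBP1. Promoter sequences came from RefSeq (GRCm38.p6), from 250 bases before to 50 after each start, and 46 of the 53 lower genes and 7735 of the tested genes had one. ERSE was searched on both strands as CCAAT, any 9 bases and CCACG. It was found in 7 of the 46 lower genes (15.2%), against 0.207% of tested genes and 0.137% of all genes in the table. The 80 bases around each of the 7 matches are printed 5′ to 3′ on the strand of the gene, because they show the motif in the 7 lower genes that hold it. Capitals mark the fixed letters of the match, which reads CGTGG and then ATTGG where it lies on the other strand. The match starts 65 bases before the start site in Hspa5, 212 in Hsp90b1, 126 in Creld2, 156 in Derl3, 44 in Syvn1, 105 in Dnajc3 and 201 in Ero1lb. Hsp90b1 holds another match on the opposite strand, 107 bases before its start, which is not printed.
Hspa5 (chr2:34771994-34772073, plus strand): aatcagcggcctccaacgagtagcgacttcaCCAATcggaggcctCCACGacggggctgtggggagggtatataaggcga
Hsp90b1 (chr10:86705608-86705687, minus strand): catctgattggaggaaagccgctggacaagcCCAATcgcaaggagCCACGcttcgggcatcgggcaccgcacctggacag
Creld2 (chr15:88819489-88819568, plus strand): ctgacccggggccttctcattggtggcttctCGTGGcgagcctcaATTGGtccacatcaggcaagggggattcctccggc
Derl3 (chr10:75893211-75893290, plus strand): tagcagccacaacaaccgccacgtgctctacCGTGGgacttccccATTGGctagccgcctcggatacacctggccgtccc
Syvn1 (chr19:6046496-6046575, plus strand): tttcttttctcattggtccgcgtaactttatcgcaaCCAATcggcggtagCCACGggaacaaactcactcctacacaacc
Dnajc3 (chr14:118937796-118937875, plus strand): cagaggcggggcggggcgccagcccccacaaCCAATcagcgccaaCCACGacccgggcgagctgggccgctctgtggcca
Ero1lb (chr13:12565651-12565730, plus strand): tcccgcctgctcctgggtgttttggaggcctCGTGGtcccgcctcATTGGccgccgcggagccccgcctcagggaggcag

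Of the 16 tested genes with an ERSE match, these 7 were lower, 13 lay below 0 and the median log2 difference was -0.65 (-0.13 with vehicle). Calr, Canx and Pdia6, another disulfide isomerase, hold a match too and did not pass the test, with -0.43, -0.19 and -0.48. Pdia4, Sel1l, Dnajb9 and Ddit3 have a promoter in the table with no ERSE match in that window. Another element, UPRE (TGACGTGG), was found in 4 of the 46 genes (8.7%), against 1.02% of tested genes. The combined element of ATF4 and CHOP (TGATGNAAT) was found in 1 of 46 (2.17%), against 0.608% of tested genes. That gene was Nupr1, whose match is printed with its fixed letters in capitals, on the strand opposite to the gene.
Nupr1 (chr7:126625538-126625617, minus strand): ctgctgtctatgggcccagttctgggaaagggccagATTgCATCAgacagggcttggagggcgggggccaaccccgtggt

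Matches are letters in a window and not measured binding. Only 19 of the 30 higher genes had a promoter in the table, fewer than 80%, so shares for them are void. Median GC content was 60.7% in the lower genes and in all tested genes.

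A further set of lower genes belongs to hepatocyte metabolism and its regulators. Of 43 cytochrome P450 genes tested, 2 were lower, none higher, and the median was -0.28 (-0.14 without WT library 3 and -0.13 with scaling by total count). Cyp2c37, an enzyme that oxidises fatty acids and drugs, was at 57.8, 59.5 and 97.2 CPM in WT and 29.4, 15.9, 9.07 and 22.9 CPM in LKO. All LKO libraries were below, and the fall was 3.72-fold (71.5 ± 22.3 against 19.3 ± 8.80 CPM, SD, adjusted p = 0.0122, edgeR). Cyp2c29 of the same subfamily was at 387, 434 and 510 CPM in WT and 240, 176, 174 and 234 CPM in LKO, 2.15-fold lower. Genes of this subfamily are close copies, and reads that fit several of them may have been lost or shifted. Cyp2e1 and Cyp3a11, the members with the most reads, had log2 differences of -0.68 and -0.61 that did not pass the test (adjusted p = 0.213 and 0.501, edgeR). With vehicle, Cyp2c37 had -1.22 and Cyp2c29 -0.59.

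Hnf4a, the nuclear receptor that maintains hepatocyte identity, fell by a small and even amount. It was at 183, 173 and 164 CPM in WT and 121, 119, 115 and 122 CPM in LKO, a 1.45-fold difference (log2 -0.54, SE 0.12, adjusted p = 0.0405, edgeR). The libraries of each genotype lay close together and the groups were well apart. Foxa3, a pioneer factor of liver genes, was at 18.2, 15.4 and 15.7 CPM in WT and 8.26, 8.98, 11.1 and 8.79 CPM in LKO, 1.76-fold lower. These were 2 of 26 hepatocyte transcription factors tested, a list whose median was -0.04 (0.12 with scaling by total count). Of 15 hepatocyte marker genes Hnf4a alone was called; Alb had a log2 difference of -0.14 and Apoa1 of 0.16.

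Zbtb16, a zinc finger transcription factor, was at 15.7, 17.7 and 12 CPM in WT and 5.46, 3.90, 3.97 and 4.34 CPM in LKO, 3.43-fold lower (adjusted p = 0.0441, edgeR). Nr0b2 (SHP), a repressor of bile acid synthesis, fell 2.85-fold on 8 to 37 reads, and Socs3, an inhibitor of cytokine signalling, 3.22-fold with overlap, as WT library 3 was at 2.16 CPM. Socs3 was the 1 called gene of 33 acute-phase genes, whose median was -0.05 (0.10 with scaling by total count). Without WT library 3 that median was -0.40, with 4 members lower. C3, the member with the most reads, was at 4823, 5951 and 1800 CPM in WT and 4238 to 5088 CPM in LKO.

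Single members of other metabolic lists fell: Asl of the urea cycle 1.68-fold (1 of 40 genes of that list) and the conjugating enzyme Ugt3a1 1.63-fold (1 of 37). Ech1, an enzyme of fatty acid oxidation in no list, fell 1.64-fold. Serpine2, an inhibitor of secreted proteases, was at 7.57, 6.49 and 5.56 CPM in WT and 3.06, 1.69, 1.12 and 1.19 CPM in LKO, 3.81-fold lower without overlap. It differed almost as much with vehicle (log2 -1.73 against -1.93) and was called in both comparisons.

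The remaining lower genes have varied roles. Snhg1, a host of small nucleolar RNAs, fell 4.42-fold on 2 to 22 reads, and Ddx28, a mitochondrial RNA helicase, 2.75-fold. Plekhb1 was at 8.53, 4.22 and 6.33 CPM in WT and 3.33, 2.21, 2.45 and 2.82 CPM in LKO. Among protein quality control genes outside the ER, Hspb8, a small heat shock protein, fell 1.69-fold, Dnaja3, a mitochondrial J-protein, 1.47-fold, and Atg13, which starts autophagy, 1.70-fold. Suco fell 1.96-fold, Elmod2 1.76-fold, Lysmd3 1.75-fold, Trabd 1.70-fold, Mtmr4 1.56-fold, Ginm1 1.55-fold, Arl8b, a lysosomal GTPase, 1.52-fold, Morf4l2 1.52-fold and Ibtk 1.5-fold. Called genes that neighbour each other within 100 kb were Ddit3 with Inhbe, Jagn1 with Creld1 and Snhg1 with Stx5a, all lower, 3 of 13993 such pairs of tested genes.

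Genes that were higher in LKO had fewer reads and longer spans than those that fell, as a description with no test. Their median CPM was 6.92, against 19.4 for lower genes and 5.81 for all tested genes, and their median span in the genome was 67.0 kb, against 14.6 kb and 25.4 kb.

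Several of them encode extracellular matrix or adhesion proteins, a grouping made after the values were seen. Col6a3, a chain of collagen VI, was at 3.58, 6.0 and 2.47 CPM in WT and 6.13, 9.50, 12.5 and 13.1 CPM in LKO. LKO library 1 barely exceeded WT library 2, and the rise was 2.61-fold (adjusted p = 0.0441, edgeR). It was the 1 called gene of 18 collagens, of which 17 lay above 0 and 10 had an unadjusted p under 0.05, against 7.55% of all genes in this direction. The collagen median was 0.87, and 0.80 with vehicle. Without WT library 2 it was 1.23 with 6 called, without library 3 0.61 with none called, and without library 1 0.70 with none called. With scaling by total count 2 were called. Col18a1, the collagen with the most reads, had 0.21, and Col3a1, a fibrillar collagen, had 0.97 (adjusted p = 0.216, edgeR) with overlapping libraries.

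Nid1, the basement membrane protein nidogen, was at 5.92, 7.94 and 4.32 CPM in WT and 11.9, 13.3, 13.9 and 12.8 CPM in LKO. LKO libraries were tightly grouped above WT (13 ± 0.845 against 6.06 ± 1.82 CPM, SD, 2.14-fold, adjusted p = 0.0188, edgeR). Tnxb, a tenascin, was at 3.16, 3.08 and 2.01 CPM in WT and 4.93, 8.20, 6.83 and 7.93 CPM in LKO. Itih5, a heavy chain of the inter-alpha-trypsin inhibitor family that binds hyaluronan, was at 5.92, 11.5 and 5.40 CPM in WT and 19.2, 15.1, 19.6 and 14.1 CPM in LKO. Both were without overlap, 2.53-fold and 2.25-fold higher. Thbs2, a matricellular protein, rose 4.16-fold on 1 to 20 reads, and Itga8, an integrin of mesenchymal cells, 3.30-fold.

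Cxcl14, a chemokine, was at 2.61, 2.43 and 0.31 CPM in WT and 10.3, 15.1, 8.66 and 6.30 CPM in LKO. All LKO libraries were above, 5.50-fold on average (adjusted p = 0.0453, edgeR), and the difference with vehicle was of the same order (log2 2.68 against 2.46). Gldn, gliomedin, a matrix protein known from nerve, had 1 read over the 3 WT libraries and 223 reads over the 4 LKO libraries, 153 of them in LKO library 3. Its ratio per sequenced read was 129.8, with a 95% counting interval of 23.1 to 5149 that covers counting error only.

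The next higher genes, grouped after their values were seen, include proteins of the cytoskeleton and cell membrane. Fmn1, a formin that builds actin filaments, was at 3.58, 2.27 and 4.78 CPM in WT and 12.3, 9.89, 13.3 and 8.90 CPM in LKO, 3.11-fold higher. Emp2, a tetraspan membrane protein, was at 1.51, 2.11 and 3.09 CPM in WT and 6.13, 4.29, 11.8 and 5.43 CPM in LKO. Shank2, a scaffold protein, was at 2.20, 3.08 and 1.70 CPM in WT and 9.33, 4.94, 5.50 and 5.21 CPM in LKO. None of the 3 overlapped, although all were below 15 CPM in every library. Gas7 rose 3.33-fold, Srgap2 1.86-fold, Myh10, a non-muscle myosin, 1.96-fold, Nav2 1.84-fold and Mpdz 1.85-fold. Snai2 (SLUG), a repressor known from mesenchymal transition, was at 0.96, 2.92 and 0.62 CPM in WT and 5.33, 5.73, 4.08 and 4.23 CPM in LKO, and the calcium-binding protein S100a11 rose 4.31-fold on 3 to 29 reads.

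Macrophage genes appeared as well. Mpeg1, a pore-forming protein of macrophages, was at 32.6, 31.3 and 19.4 CPM in WT and 38.2, 75.3, 76.5 and 56.9 CPM in LKO, 2.22-fold higher (adjusted p = 0.0334, edgeR). Sirpa, an inhibitory receptor of myeloid cells, rose 1.99-fold. With vehicle both were higher in LKO too, with log2 differences of 0.88 for Mpeg1 and 0.54 for Sirpa, though neither was called there. Of 17 Kupffer and macrophage markers tested, Mpeg1 alone was called, 16 lay above 0 and the median was 0.30, against -0.02 with vehicle. Without WT library 1 the median was 0.51, and no marker was called without library 1 or 3, while 3 were called with scaling by total count. The summed level of the list was 120 to 167 CPM in WT and 152 to 279 CPM in LKO, so that the groups overlapped. Defining markers differed less: the log2 difference was 0.08 for Clec4f, 0.24 for Csf1r and 0.19 for Adgre1. Whether more macrophages or more RNA per cell lay behind these values was not tested.

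Markers of the cells that make matrix were measured beside these genes. None of 16 stellate cell and fibroblast markers was called, 12 lay above 0 and the median was 0.30, with sums of 223 to 262 CPM in WT and 237 to 303 CPM in LKO. Of the defining markers, Pdgfrb had a log2 difference of 0.89 (adjusted p = 0.150, edgeR), Dcn of 0.31, Reln of 0.29 and Lrat of 0.20, and Des was not tested. Endothelial markers had none called of 19 and a median of 0.04. None of 3 bile duct markers tested was called. Spp1 had 1.36 (adjusted p = 0.212) and Sox9 went the other way, with -0.23 (adjusted p = 0.803), in edgeR. Krt19, Krt7 and Epcam were not tested. The part of these cells in the matrix result was not tested.

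The other higher genes were few in each class. Ifi27l2b, an interferon-induced gene, was at 6.88, 5.35 and 1.85 CPM in WT and 15.5, 14.1, 16.7 and 12.5 CPM in LKO, 3.09-fold higher. It was the 1 called gene of 39 interferon and antigen genes (median 0.09), while Ddx58 (RIG-I), an RNA sensor, rose 1.69-fold. Scd2, a fatty acid desaturase, rose 2.87-fold and was the 1 called gene of 34 lipogenesis genes. Its liver form Scd1 was at 70.5, 111 and 2046 CPM in WT and 960, 2950, 1158 and 1274 CPM in LKO, so that WT library 3 lay among the LKO libraries and the log2 difference of 1.10 did not pass the test (adjusted p = 0.542, edgeR).

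Camk1d, a calcium-dependent kinase, was at 12.2, 18.8 and 23.5 CPM in WT and 40.1, 34.4, 43.4 and 35 CPM in LKO, 2.11-fold higher (adjusted p = 0.0277, edgeR). Zfp704, a zinc finger protein, was at 2.20, 3.57 and 2.62 CPM in WT and 6.26, 4.81, 6.93 and 6.62 CPM in LKO. Neither overlapped. Dnmt3a, a DNA methyltransferase, rose 1.67-fold, Rbm3, a cold-induced RNA-binding protein, 1.99-fold, Agtr1a, the angiotensin receptor, 1.55-fold, Gabbr2 1.58-fold and Atp6v0d2 3.27-fold.

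**Figure D3:**
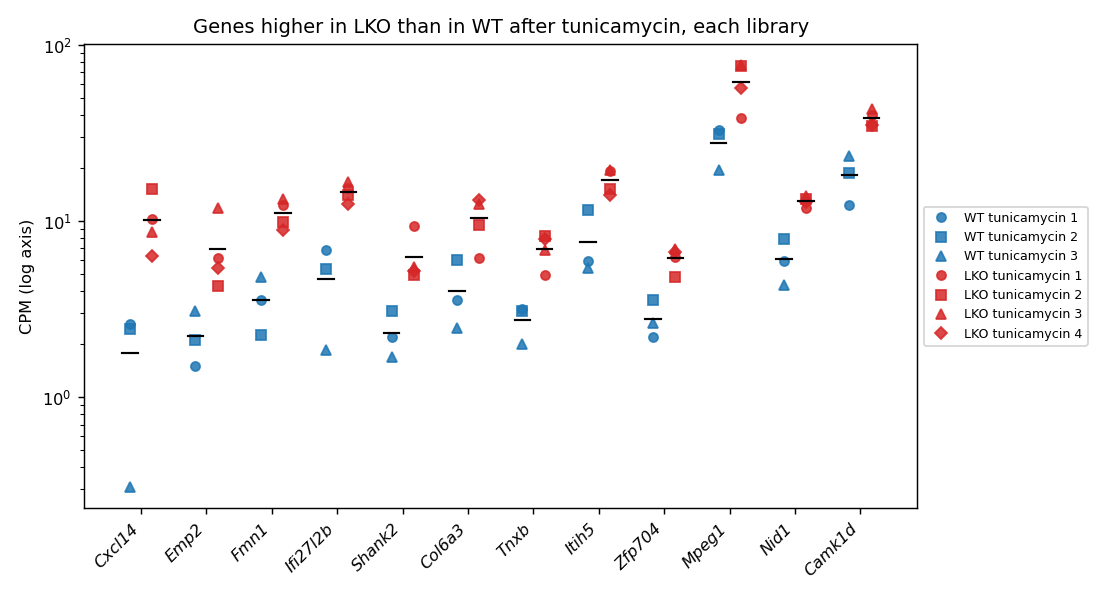
CPM (log axis) of 12 genes called higher, those with the largest rises whose libraries did not overlap and whose log2 CPM averaged 2 or more, in each tunicamycin library. Blue symbols are WT libraries 1 to 3, red symbols LKO libraries 1 to 4, and bars are group means. Most genes lie below 20 CPM, and LKO library 1 (red circles) comes closest to WT for Col6a3, Tnxb, Mpeg1 and Nid1.

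The genotype difference with vehicle was set beside that after tunicamycin. LKO and WT livers given vehicle share no library with the comparison above, and 4 genes were called between them (0.0415%), of which Serpine2 and Col6a3 were also called after tunicamycin. Among the 30 higher genes, 29 were also above 0 with vehicle, the median was 0.75, and 20 had an unadjusted p under 0.05 there, against 8.15% of all genes. Among the 53 lower genes, 48 were below 0 with vehicle, the median was -0.28, and 13 had an unadjusted p under 0.05. The vehicle difference was a median share of 0.57 of the tunicamycin difference for higher genes and 0.28 for lower genes. The genes were chosen by their tunicamycin difference, so these shares can be too low and do not measure dependence on the drug. Hsp90b1 had -0.11 with vehicle and -1.12 after tunicamycin, Pdia4 0.12 and -1.04, and Derl3 0.28 and -3.23. Other ER stress genes were lower with vehicle too. Syvn1 had -0.71 and -1.88, Hspa5 -0.66 and -1.78, Ero1lb -0.64 and -0.98, and Dnajb9 -0.62 and -1.31. With vehicle, Creld2 had -1.08 and Ddit3 -0.98. None of these ER stress genes was called with vehicle. Among higher genes Cxcl14 had 2.68 and 2.46, Ifi27l2b 2.0 and 1.63, and Col6a3 2.01 and 1.39. Members of each direction differed in this. The vehicle difference was small for the higher genes Snai2 (0.17 and 1.70), Mpdz (0.02 and 0.89) and Srgap2 (-0.04 and 0.89). It was large beside the tunicamycin difference for the lower genes Serpine2 (-1.73 and -1.93) and Plekhb1 (-0.90 and -1.25).

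Whether the genotype difference itself changed with the drug was tested as an interaction. No gene passed (0% of genes tested; smallest adjusted p 0.935 in edgeR), 474 had an unadjusted p under 0.05 (4.91%), and DESeq2 called none, with 288 at an unadjusted p under 0.05. All 53 lower genes had a negative interaction value, with a median of -0.55, and 35 had an unadjusted p under 0.05. Of the 30 higher genes 26 were positive, the median was 0.44 and 7 had an unadjusted p under 0.05. These values share the tunicamycin libraries that chose the genes, so they describe them and support nothing. For single genes the interaction on the log2 scale was -1.12 for Hspa5, -1.16 for Pdia4, -3.51 for Derl3 and -3.04 for Ddit3.

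The change from vehicle to tunicamycin was set side by side for the genotypes, although these contrasts share libraries with the genotype comparison. The median log2 change over the 53 genes was 0.56 in WT and -0.01 in LKO. Hspa5 changed by 1.57 in WT and 0.45 in LKO, Hsp90b1 by 1.27 and 0.26, Ddit3 by 3.71 and 0.67, and Cyp2c29 by 0.02 and -0.50. For the 30 higher genes the medians were -0.12 in WT and 0.40 in LKO.

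**Figure D4:**
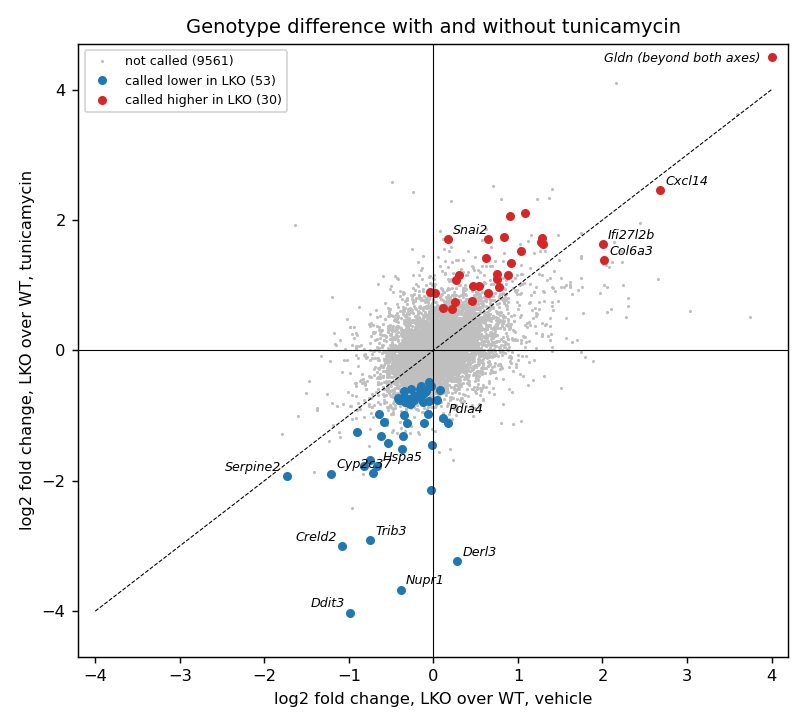
Log2 fold change of LKO over WT with vehicle (horizontal axis) and after tunicamycin (vertical axis) for 9644 tested genes; blue points are the 53 genes called lower and red points the 30 called higher after tunicamycin, the dashed line marks equal differences and Gldn lies beyond both axes. Derl3, Nupr1, Ddit3 and Pdia4 lie below the dashed line, whereas Cxcl14, Ifi27l2b, Col6a3 and the lower gene Serpine2 lie nearer to it and Snai2 lies above it.

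Most other gene lists had few calls or none, but several leaned one way. Of the 83 called genes 33 were in a list, 29 of them lower. Cytosolic heat shock genes had 26 of 27 below 0, and 13 had an unadjusted p under 0.05, against 8.24% of all genes in this direction. Their median was -0.35, against -0.26 with vehicle and -0.20 with scaling by total count, where Hspb8, the 1 called, was no longer called. Cholesterol synthesis had no called gene of 27, but 24 lay above 0, 12 had an unadjusted p under 0.05 and the median was 0.56, with 0.43 with vehicle. Of these 27 genes 3 were called higher without WT library 3 and 4 with scaling by total count. Oxidative phosphorylation had 70 of 73 genes below 0 with a median of -0.24, and none called. Without WT library 3 that median was -0.09, and with scaling by total count -0.10, so its size depended on that library and on the scaling. Ribosomal proteins had a median of 0.00 over 74 genes and none called.

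**Figure D5:**
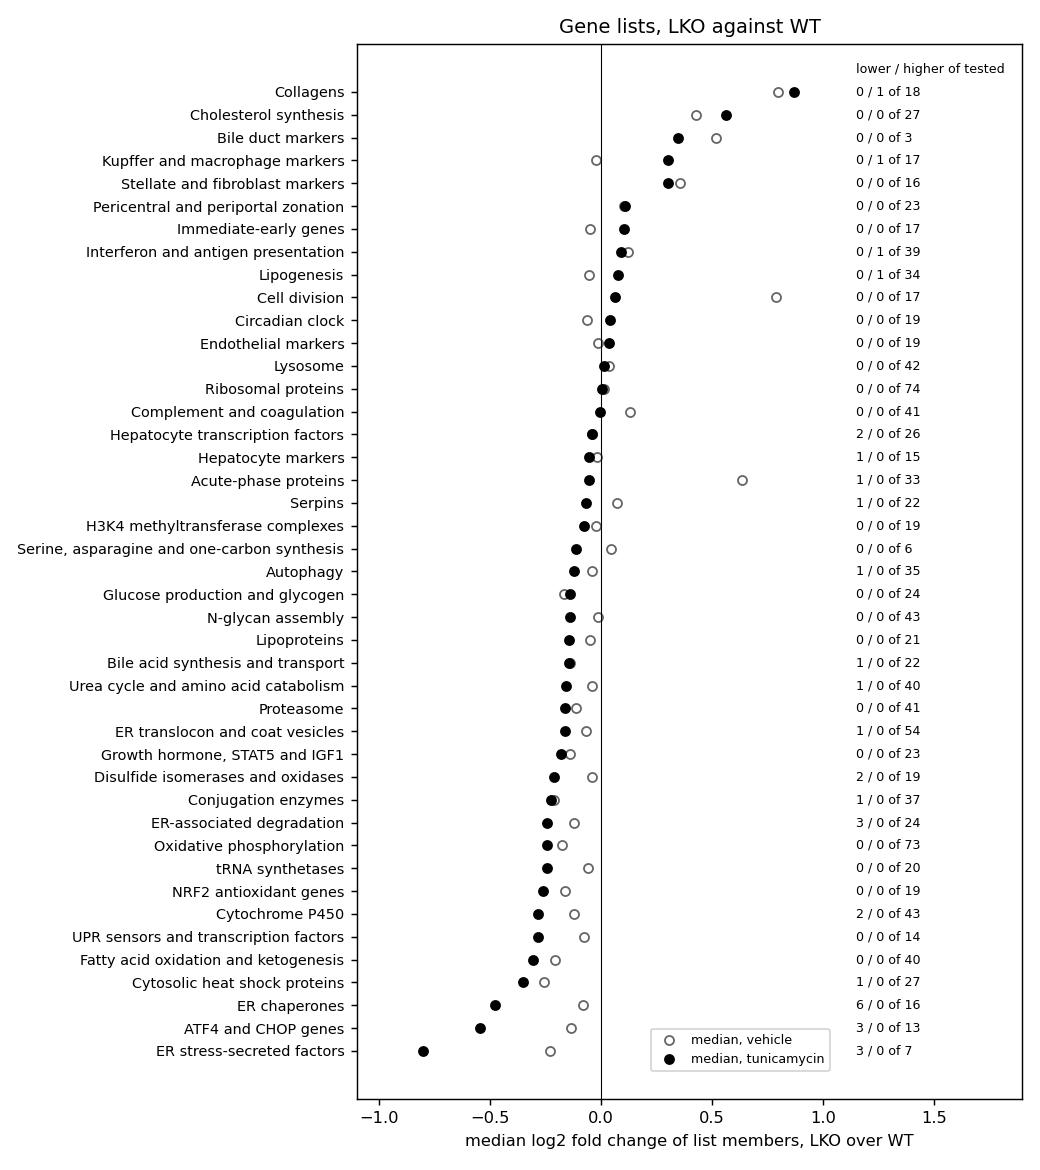
Median log2 fold change of LKO over WT (horizontal axis) for each gene list with at least 3 tested genes, after tunicamycin (filled) and with vehicle (open); numbers at the right count members called lower and higher, of those tested. ER stress-secreted factors, ATF4 and CHOP genes and ER chaperones lie lowest after tunicamycin with vehicle medians nearer 0, and collagens lie highest in both treatments.

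How far the ER result depends on the libraries that stood apart can be read from the fits without them. WT library 2 was the lowest of the WT libraries in 36 of the 53 lower genes, and WT library 1 the highest in 39. Without library 2, the ER chaperone list had 7 genes lower and a median of -0.53, ERAD 6, the ATF4 and CHOP list 5, and the secreted factors and the disulfide enzymes 3 each. Without library 3, which held low acute-phase and high lipogenesis levels, ER chaperones had 4 genes lower with a median of -0.46 and ERAD 3, while the ATF4 and CHOP list, the secreted factors and the disulfide enzymes had 1 each. Without library 1 no member was called, and the median was -0.45 for ER chaperones and -0.23 for ERAD. Hspa5 had a log2 difference of -1.54, -2.11 and -1.62 without library 1, 2 and 3, with adjusted p of 0.0797, 3.85e-05 and 0.0163 (edgeR).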

How the data were processed

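RNA from whole liver of male mice was sequenced, and per the labels the molecule was polyadenylated RNA in libraries with Bio-Rad SEQuoia index primers. Trimmomatic, STAR, Cufflinks and mm10 are named in the submitters' processing notes, with no version or role for each. The authors deposited whole-read counts per gene for each library, and the sense-strand column was used (99.5 to 99.6% of stranded reads). They also deposited FPKM, fragments scaled by length and library size, per the file headers; it served only as an alternative, where 277 names had several entries and were dropped. Files name 24411 genes by symbol, and coordinates come from RefSeq (GRCm38.p6) by symbol.

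Counts were fitted with edgeR 4.0.16 in R 4.3.3, with TMM, filterByExpr by group, 1 mean per group over 13 samples and the quasi-likelihood test (9 residual degrees of freedom, common biological coefficient of variation 0.155). LKO vehicle libraries 3 and 4 had a chi-square per degree of freedom of 1.12, against 3.38 or more for other pairs, and were summed. The call threshold was 0.05 after Benjamini-Hochberg adjustment across the 9644 genes tested. The scripts were tested on simulated data. Values per library are given for the 12 largest rises and 12 largest falls whose libraries did not overlap and whose log2 CPM averaged 2 or more, and for genes the results turn on. From lists with a called member, called genes and up to 3 others of highest CPM are named. Alternatives were DESeq2 1.42.0, limma 3.58.1 on FPKM, other scalings, filters and columns, and leaving out each sample. Members, lists and tests were chosen with earlier results of these data known. Lists were described by counts and medians, without a set test.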

Additional observations from a re-analysis of the deposited data

Results flagged for a closer look

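Of the genes named above, 107 were looked at for a single LKO tunicamycin library far from the other 3. The measure was the gap to its nearest neighbour over the whole range (above Dixon's 95% critical value). Of 107 genes 10 were picked out, and chance alone picks about 1 in 20 groups. LKO library 1 was the high one for Manf (37.3 CPM, others 22.9 to 24.8), Sec23b (11.6 CPM, others 9.17 to 9.24), Gabbr2 (15.3 CPM, others 13.5 to 13.7), Shank2 (9.33 CPM, others 4.94 to 5.50) and Calr (328 CPM, others 233 to 248). LKO library 2 was high for Socs3 (2.60 CPM, others 1.47 to 1.63) and Scd1 (2950 CPM, others 960 to 1274) and low for Herpud1 (53.9 CPM, others 65.3 to 67.6). LKO library 3 was low for Ddx28 (1.53 CPM, others 2.50 to 2.60), and LKO library 4 high for Mtmr4 (11.3 CPM, others 9.37 to 9.59).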

How the results depend on the processing

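Depth after Rn45s limits genes under about 10 CPM, and 3 against 4 libraries limit all. Between LKO and WT after tunicamycin, 83 genes were called in the fit reported, 138 with DESeq2, 164 with total count scaling, 261 with no filter on low counts, 27 with only the 7 tunicamycin libraries and 7 with limma on log2(FPKM + 1) without a filter; leaving out 1 sample at a time gave 0 to 183, with 131 without LKO vehicle libraries 3 and 4. With vehicle, 4 became 20 with DESeq2, 8 with total count scaling, 84 with no filter, 12 with 14 separate libraries, 10 with the replicate block over those 14 and 0 with each of the 3 FPKM fits, and 0 to 17 when leaving out 1 sample. The interaction gave 0 to 2. For these counts the cause of each change was not tested. Size factors of DESeq2 in edgeR (83 called), Rn45s left out (86) and counts without strand (87) changed little; 14 separate libraries gave 115, limma on log2(FPKM + 0.1) 90.

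With the replicate number as a block over 14 separate libraries, 90 genes were called after tunicamycin, against 115 in the same fit without the block, and 68 of the 90 were among the 83. Numbers were not taken as pairs: same-numbered libraries correlated at 0.118, 0.057 and -0.039 after tunicamycin, and WT libraries 1 and 2 correlated best with the LKO library of their own number but WT library 3 with LKO library 4.

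Cth, at -0.15, turned to 0.00966 with total count scaling, to 0.0642 with log2(FPKM + 1) with and without the filter, and to 0.0675 with log2(FPKM + 0.1), and ranged from -0.332 to 0.0104 when leaving out 1 sample. Ern1 turned to 0.0183 with total count scaling. Atf5 ranged from -0.0156, without LKO tunicamycin library 3, to 0.208, and C3 from -0.235, without WT tunicamycin library 3, to 0.472. The cause was not tested.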
